A study of Arabidopsis thaliana with 11 samples.

Results

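The 4 drought-linked genes HIS1-3 (locus AT2G18050, probe set MRT3702_7616C.2_at), AT3G20340 (MRT3702_12472C.2_at), LEA4-5 (AT5G06760, MRT3702_20164C.2_at) and AT5G38710 (MRT3702_22579C.2_at) were followed over 11 arrays of Arabidopsis thaliana shoots. They were found by the gene name of the platform's annotation, and each had 1 probe set, so 4 of 19371 plant probe sets and 4 of 11320 named loci were described. The members were chosen on earlier results from the same arrays. HIS1-3 and AT3G20340 were chosen by their lower values in CBF4 than in AtNF-YB1 shoots, so that comparison is given for them as a description without a p-value. The annotation names no genome build, and no coordinates are given.

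The arrays came from wild type Col-0 (3 arrays), from 2 independent lines that carry 35S::CBF4 (lines 10 and 19) and from 2 independent homozygous lines that carry 35S::AtNF-YB1 (lines 3 and 6), with 2 arrays per line. The 35S promoter is active in most plant cells, so expression of the factors was not confined to the cells that normally make them. Seedlings were raised on plates for 14 days under 24 h of light per day, each array took the RNA of a pool of about 24 seedlings, and the shoots were cut from the roots. No group was exposed to drought, salt or abscisic acid, so the values are levels in unstressed shoots. In RNA of whole shoots, fewer cells of a type and less RNA per cell cannot be told apart.

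HIS1-3, LEA4-5 and AT5G38710 stand for different parts of the response to water shortage. Linker histones bind the nucleosome and the DNA that joins it to the next, and HIS1-3 encodes the Arabidopsis variant whose transcript is known to rise with drought and abscisic acid. Late embryogenesis abundant (LEA) proteins are hydrophilic proteins that accumulate in drying seeds and in dehydrated tissue, where LEA4-5, of group 4, is thought to shield enzymes from inactivation. AT5G38710 is a proline dehydrogenase gene. Proline accumulates in many plants under water deficit, and proline dehydrogenase carries out the first step of its breakdown in mitochondria. CBF4 belongs to the factors that bind the DRE/CRT element of cold- and drought-inducible promoters, and AtNF-YB1 encodes the B subunit of NF-Y, a trimer that binds CCAAT boxes. The sources used here annotate no function for AT3G20340.

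The median intensity of the plant probe sets ran from 9.235 to 22.7 units between arrays as deposited, so levels are given as deposited intensities and, for every comparison, as log2 values after quantile normalization. Values below the 20th percentile of all normalized values were raised to it, a floor of 0.93 log2. The shoot markers measured, LHB1B2 and RCA (2 of 13 listed), had summed levels of 3625 to 4131 units in wild type, 3901 to 4220 in CBF4 and 3829 to 4088 in AtNF-YB1 arrays. The root markers measured (4 of 12) summed to 212 to 495, 216 to 435 and 292 to 434 units, nearly all from PYK10, and the root hair gene EXPA7 had a mean of only 1.73 log2. None of these 6 markers passed the test between any 2 of the 3 genotypes. CBF4 and AtNF-YB1 themselves were not found under a name. On a vector probe set for the NOS 3′ end, the 8 transgenic arrays lay between 154 and 705 units, and the wild type arrays between −0.44 and 52.3. The array labelled wild type replicate 3 held the 52.3, and it also held 1164 units on the E9 vector probe set, above the 504.5 to 591 units of the CBF4 arrays. Differences of the members from wild type are therefore also given without it, as are the list calls that changed.

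All 4 genes were dim. Their means over 11 arrays lay at the 46.4th (HIS1-3), 42.7th (LEA4-5), 37.8th (AT3G20340) and 36.7th (AT5G38710) percentile of the plant probe sets. Background was read from 162 control probe sets with OBAR names, whose median lay below 0 on every array (−2.55 to −0.72 units) and whose 95th percentile ran from 4.63 to 11.65 units. HIS1-3 exceeded it on 7 of 11 arrays, AT3G20340 on 5, LEA4-5 on 4 and AT5G38710 on 3. The plot of deposited intensities sets each value beside the background of its own array.

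**Figure D1:**
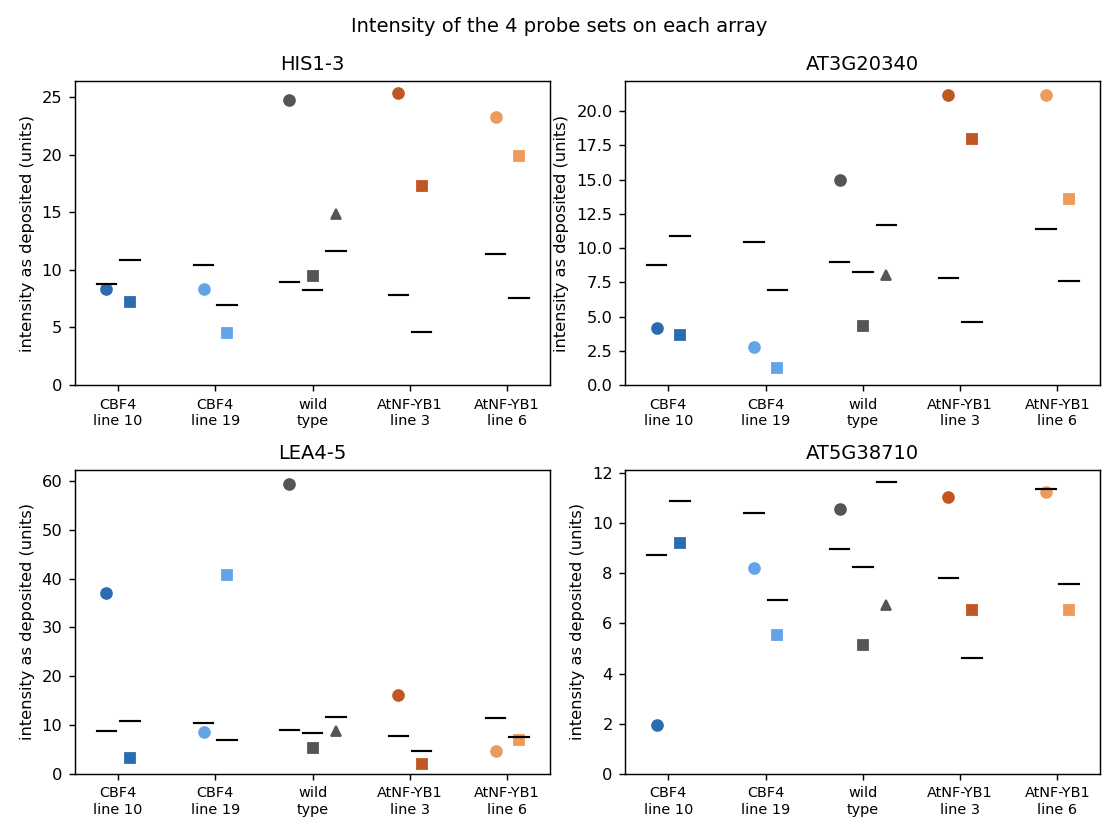
Deposited intensity (linear units) of the 4 probe sets on each of the 11 arrays, by line; circles are replicate 1, squares replicate 2 and the triangle wild type replicate 3, and the black bar beside each point is the OBAR 95th percentile of that array. HIS1-3 and AT3G20340 lie below the bar on all 4 CBF4 arrays and above it on all 4 AtNF-YB1 arrays, while LEA4-5 is far above it on CBF4 line 10 replicate 1, CBF4 line 19 replicate 2 and wild type replicate 1.

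HIS1-3, the linker histone gene, was lowest in the CBF4 shoots, intermediate in wild type and highest in the AtNF-YB1 shoots. Its deposited intensity was 8.295 and 7.18 units in CBF4 line 10 and 8.31 and 4.50 in CBF4 line 19. Wild type gave 24.7, 9.44 and 14.85 units. The AtNF-YB1 arrays gave 25.3 and 17.2 units in line 3 and 23.3 and 19.9 in line 6. On the deposited scale the CBF4 arrays lay below all others, and wild type replicate 1 reached into the range of the AtNF-YB1 arrays. After normalization the values were 3.02, 2.74, 2.835 and 2.57 log2 in CBF4 (lines 10 and 19), 4.18, 3.59 and 3.68 in wild type, and 4.47, 4.89, 4.42 and 4.36 in AtNF-YB1 (lines 3 and 6). On this scale the 3 genotypes did not overlap on any array.

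The normalized mean of HIS1-3 was 2.79 ± 0.19 log2 in CBF4 (SD, n = 4), 3.82 ± 0.32 in wild type (SD, n = 3) and 4.54 ± 0.24 in AtNF-YB1 (SD, n = 4). The CBF4 lines were −1.03 ± 0.18 log2 (SE) from wild type, a 2.04-fold difference with a 95% interval of −1.46 to −0.59 (limma adjusted p = 0.173). The AtNF-YB1 lines were 0.72 ± 0.18 log2 above wild type, 1.65-fold, with an interval of 0.29 to 1.15 (limma adjusted p = 0.831). Neither passed the threshold of 0.05 over all 19374 probe sets tested. Without wild type replicate 3 the differences were −1.08 ± 0.21 and 0.65 ± 0.21 log2. All 4 CBF4 values were below background, so they are bounds. With the background in their place, the wild type mean was at least 1.52-fold and the AtNF-YB1 mean at least 2.51-fold above CBF4. These bounds on means make no allowance for the spread between arrays. The comparison that chose the gene, CBF4 minus AtNF-YB1, measured −1.75 ± 0.17 log2, or 3.35-fold.

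Both lines of a construct had HIS1-3 means on the same side of wild type. CBF4 line 19 had the lowest mean, 2.70 log2, followed by CBF4 line 10 at 2.88, wild type, AtNF-YB1 line 6 at 4.39 and AtNF-YB1 line 3 at 4.68. After normalization the CBF4 lines overlapped, with line 19 minus line 10 at −0.18 ± 0.24 log2. The AtNF-YB1 lines did not overlap on that scale, with line 6 minus line 3 at −0.29 ± 0.24 (limma adjusted p = 1 for both). On deposited values AtNF-YB1 line 6, at 19.9 to 23.3 units, lay within line 3, at 17.2 to 25.3. Against wild type the lines were −0.94, −1.12, 0.86 and 0.58 log2 (CBF4 lines 10 and 19, AtNF-YB1 lines 3 and 6), each with an SE of 0.22 (limma adjusted p = 0.413, 0.254, 0.691 and 1), and none passed. Leaving out wild type replicate 3 gave −0.99, −1.17, 0.79 and 0.51 log2 with an SE of 0.25.

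AT3G20340 showed the same order with a wider range. Its deposited intensity was 4.13 and 3.63 units in CBF4 line 10 and 2.81 and 1.24 in line 19. Wild type gave 14.99, 4.30 and 8.045 units. AtNF-YB1 line 3 gave 21.2 and 17.9 units and line 6 gave 21.2 and 13.6. All CBF4 arrays lay below all others, all AtNF-YB1 arrays lay above wild type replicates 2 and 3, and wild type replicate 1 exceeded the second array of AtNF-YB1 line 6 on this scale. After normalization the values were 2.035, 1.70, 1.24 and 0.93 log2 in CBF4, the last of them at the floor, 3.435, 2.42 and 2.88 in wild type, and 4.235, 4.94, 4.29 and 3.81 in AtNF-YB1. The genotypes again did not overlap on any array.

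The normalized mean of AT3G20340 was 1.48 ± 0.49 log2 in CBF4 (SD, n = 4), 2.91 ± 0.51 in wild type (SD, n = 3) and 4.32 ± 0.46 in AtNF-YB1 (SD, n = 4). Against wild type CBF4 was at −1.44 ± 0.29 log2 (SE), 2.71-fold, with an interval of −2.14 to −0.73 (limma adjusted p = 0.26). AtNF-YB1 was at 1.41 ± 0.29 log2, 2.65-fold, with an interval of 0.70 to 2.11 (limma adjusted p = 0.585). Neither passed the threshold, and without wild type replicate 3 the differences were −1.43 ± 0.36 and 1.38 ± 0.36 log2. Wild type exceeded background on 1 of 3 arrays, so no fold over CBF4 can be bounded. The AtNF-YB1 mean was 2.16-fold above the background of the CBF4 arrays, without allowance for the spread between arrays. The comparison that chose the gene, CBF4 minus AtNF-YB1, measured −2.84 ± 0.27 log2, or 7.18-fold.

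The lines of AT3G20340 ran from CBF4 line 19 (1.08 log2) through CBF4 line 10 (1.87), wild type and AtNF-YB1 line 6 (4.05) to AtNF-YB1 line 3 (4.59). All 4 CBF4 values of both genes were below background, so the order of the CBF4 lines is not read. Normalized values of the CBF4 lines did not overlap, and line 19 minus line 10 was −0.78 ± 0.39 log2, and line 6 minus line 3 of AtNF-YB1 was −0.53 ± 0.39 (limma adjusted p = 1 for both). The lines were −1.045, −1.83, 1.67 and 1.14 log2 from wild type, with an SE of 0.35 each (limma adjusted p = 0.782, 0.25, 0.559 and 1), and −1.045, −1.82, 1.65 and 1.11 with an SE of 0.41 when wild type replicate 3 was left out. The plot of line differences shows all 4 genes on this scale.

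**Figure D2:**
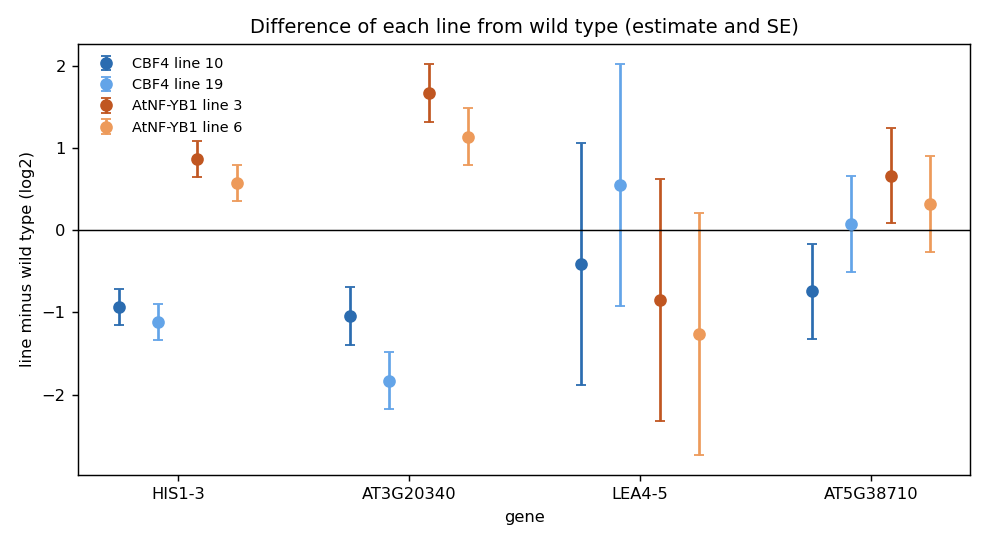
Difference of each transgenic line from wild type (log2, estimate and SE of the limma fit, 2 arrays per line and 3 of wild type). Both CBF4 lines lie below 0 and both AtNF-YB1 lines above 0 for HIS1-3 and AT3G20340, with smaller errors (0.22 and 0.35) than for LEA4-5 (1.47) and AT5G38710 (0.58).

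HIS1-3 and AT3G20340 also tracked each other array by array. Over the 11 arrays their normalized values had Pearson's r = 0.99 and Spearman's rho = 0.98, and r = 0.98 without the 2 arrays farthest from the median of HIS1-3. The genotype sets much of this, but r was 0.92 over the deviations from the line means, so within a line the array with more HIS1-3 was also the array with more AT3G20340. HIS1-3 and AT3G20340 were chosen by the same comparison between the constructs, so a high r over all 11 arrays follows in part from the choice. On the CBF4 arrays both genes were below background. Both values of an array come from the same RNA and labelling, and these correlations are descriptions. The 11 arrays were not divided further, because a genotype holds at most 4.

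**Figure D3:**
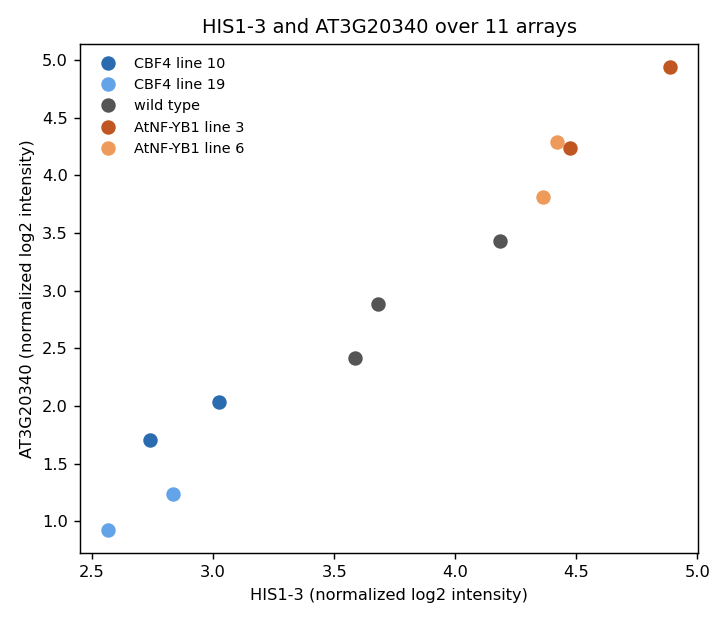
Normalized log2 intensity of AT3G20340 (vertical axis) against HIS1-3 (horizontal axis), 1 point per array and 11 in all, coloured by line. The CBF4 arrays lie at the lower left (HIS1-3 at 2.57 to 3.02), wild type in the middle (3.59 to 4.18) and AtNF-YB1 at the upper right (4.36 to 4.89).

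A complete order of CBF4 below wild type below AtNF-YB1 on every array was found for 4 of the 19374 probe sets (0.0206%), and HIS1-3 and AT3G20340 were 2 of them. AT1G15170 and AT3G22670 were the other two. AT1G15170 had means of 4.15, 4.65 and 5.15 log2 in CBF4, wild type and AtNF-YB1, and AT3G22670 had means of 2.38, 2.91 and 3.33. The reverse order, with AtNF-YB1 lowest, also held for 4 probe sets, none of them a member. Taken singly, 2 of the 4 members lay below wild type on all CBF4 arrays, against 2.93% of all probe sets, and 2 of 4 lay above wild type on all AtNF-YB1 arrays, against 1.93%. Because HIS1-3 and AT3G20340 were chosen by the distance between the constructs, these shares describe them and support nothing further. The order needed the normalization: on deposited values no probe set had it, and without wild type replicate 3 it held for 16.

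LEA4-5 varied between arrays of the same line more than between genotypes. Its deposited intensity was 37.0 and 3.15 units in CBF4 line 10 and 8.57 and 40.65 in CBF4 line 19. Wild type gave 59.4, 5.30 and 8.74 units. AtNF-YB1 line 3 gave 16.1 and 2.03 units and line 6 gave 4.73 and 6.94. Thus 3 arrays stood high, 1 of each CBF4 line and 1 of wild type, each above 35 units, the first array of AtNF-YB1 line 3 was intermediate, and all others were below 10 and below background. The groups overlapped fully.

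The normalized mean of LEA4-5 was 3.80 ± 1.97 log2 in CBF4 (SD, n = 4), 3.73 ± 1.51 in wild type (SD, n = 3) and 2.67 ± 0.87 in AtNF-YB1 (SD, n = 4). The SD within a line was 1.70 log2, against 0.25 for HIS1-3, 0.40 for AT3G20340 and 0.67 for AT5G38710. CBF4 minus wild type was 0.07 ± 1.23 log2 (SE) with a 95% interval of −2.88 to 3.02, and AtNF-YB1 minus wild type was −1.055 ± 1.23 with an interval of −4.00 to 1.895 (limma adjusted p = 1 for both). With a spread this wide, even large changes in either direction were not detectable. The CBF4 difference changed sign with single arrays: leaving out wild type replicate 3 gave −0.30 log2 and leaving out replicate 2 gave −0.43, and it was −0.85 without CBF4 line 10 replicate 1 and −0.63 without CBF4 line 19 replicate 2. The AtNF-YB1 difference was −0.19 log2 without wild type replicate 1 and −1.42 without wild type replicate 3. CBF4 minus AtNF-YB1 was 1.13 ± 1.14 log2, line 19 minus line 10 was 0.96 ± 1.62, and line 6 minus line 3 was −0.42 ± 1.62.

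The arrays with high LEA4-5 were partly those with high levels of another LEA list member. AT3G02480, chosen after its values were seen, gave 311.7 units on wild type replicate 1, 52.5 on CBF4 line 19 replicate 2 and 20.2 on wild type replicate 3, and −5.40 to 11.3 on the other arrays. On CBF4 line 10 replicate 1, where LEA4-5 was 37.0 units, AT3G02480 was only 10.0. Over 11 arrays its r with LEA4-5 was 0.80 (rho = 0.80), 0.53 without the 2 farthest arrays and 0.83 within lines. AT3G02480 was −1.64 ± 1.86 log2 in CBF4 and −1.92 ± 1.86 in AtNF-YB1 against wild type (limma adjusted p = 1 for both). Which feature of these pools goes with the high arrays was not tested.

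**Figure D4:**
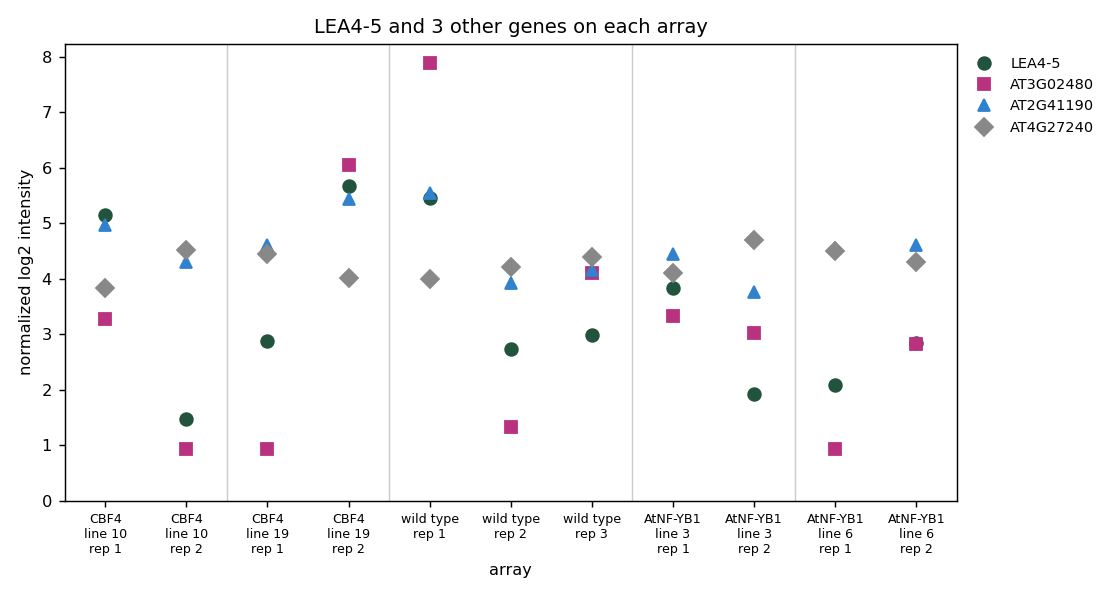
Normalized log2 intensity of LEA4-5, AT3G02480, AT2G41190 and AT4G27240 on each of the 11 arrays, with vertical lines between the 5 line groups. LEA4-5 is above 5 log2 on CBF4 line 10 replicate 1, CBF4 line 19 replicate 2 and wild type replicate 1, where AT2G41190 is high and AT4G27240 is low.

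AT5G38710, the proline dehydrogenase gene, was near background throughout. Its deposited intensity was 1.96 and 9.22 units in CBF4 line 10 and 8.22 and 5.55 in CBF4 line 19. Wild type gave 10.57, 5.145 and 6.72 units. AtNF-YB1 line 3 gave 11.06 and 6.53 units and line 6 gave 11.2 and 6.54. The groups overlapped, and only the first array of CBF4 line 10 stood apart, at the low end. Its normalized value there was the floor, 0.93 log2, against 2.65 to 3.55 on the other 10 arrays.

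The normalized mean of AT5G38710 was 2.43 ± 1.01 log2 in CBF4 (SD, n = 4), 2.76 ± 0.17 in wild type (SD, n = 3) and 3.25 ± 0.35 in AtNF-YB1 (SD, n = 4). CBF4 minus wild type was −0.34 ± 0.48 log2 (SE) with an interval of −1.495 to 0.82, and it was 0.21 ± 0.19 without the low array. AtNF-YB1 minus wild type was 0.49 ± 0.48 log2 with an interval of −0.67 to 1.65 (limma adjusted p = 1 for both comparisons with all arrays). Without wild type replicate 3 these were −0.39 ± 0.59 and 0.43 ± 0.59 log2. CBF4 minus AtNF-YB1 was −0.82 ± 0.45 log2, and −0.28 ± 0.18 without the low array. CBF4 line 19 minus line 10 was 0.82 ± 0.63 log2, −0.27 without the low array, and AtNF-YB1 line 6 minus line 3 was −0.34 ± 0.63. By line the mean ran from 2.02 log2 (CBF4 line 10) through wild type, CBF4 line 19 (2.84) and AtNF-YB1 line 6 (3.08) to AtNF-YB1 line 3 (3.42), and each group overlapped its neighbour in this order.

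Over the 4 genes, the test against wild type made 0 calls in either construct. In the limma fit, 0 of 4 members passed an adjusted p of 0.05 in CBF4 against wild type, where 0.232% of all probe sets did, and 0 of 4 in AtNF-YB1 against wild type, where 0.0155% did. At an unadjusted p below 0.05 there were 2 of 4 in each comparison, HIS1-3 and AT3G20340, while all probe sets gave 6.15% and 4.02%. Both genes were chosen by the distance between the constructs on these same arrays, so nothing is read from these counts. Between the constructs 2 of 4 members passed, where 0.31% of all probe sets did, and nothing is read from that count because the comparison chose both. Between the lines of a construct 0 of 4 passed in limma, where 0.0155% (CBF4) and 0.0258% (AtNF-YB1) of all probe sets did. At an unadjusted p below 0.05 there were also 0 of 4, against 3.43% and 4.18% of all probe sets. The comparisons share the wild type arrays or the transgenic arrays, so their values are not independent.

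The remaining pairs of members moved together less. LEA4-5 had r = −0.26 with HIS1-3 and −0.31 with AT3G20340 over 11 arrays, and AT5G38710 had 0.47 and 0.45 with the same genes. The last pair of values was −0.14 and 0.01 over deviations from line means. LEA4-5 and AT5G38710 had r = −0.49 (rho = −0.39), which was −0.80 without the 2 farthest arrays and −0.58 within lines. CBF4 line 10 replicate 1 carried a high LEA4-5 and the lowest AT5G38710.

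The genes of other loci most like each member were ranked by r over the 11 arrays among the 5153 named probe sets whose mean reached the median of all probe sets. HIS1-3 was closest to AT1G15170 (r = 0.98), AT4G13840 (0.95), AT5G43450 (0.93), AT1G71140 (0.93) and AT5G59540 (0.91), and most opposite to AT1G14580 (−0.94), AT1G33230 (−0.93) and AT5G62350 (−0.91). AT4G13840 is also known as CER26, a gene of cuticular wax synthesis, and its mean ran from 7.40 log2 in CBF4 through 7.66 in wild type to 7.85 in AtNF-YB1. AT3G20340 shared its 3 closest genes with HIS1-3: AT1G15170 (0.98), AT5G43450 (0.95) and AT4G13840 (0.92), followed by AT1G44810 (0.90) and the glucosyltransferase gene UGT71D1 (0.89). Its most opposite genes were AT1G14580 (−0.91), AT1G33230 (−0.90) and AT4G30460 (−0.88). HIS1-3 and AT3G20340 were chosen by the same comparison, so their shared neighbours follow in part from the choice. AT1G14580 had means of 5.65, 4.30 and 4.09 log2 in CBF4, wild type and AtNF-YB1.

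For HIS1-3 these values were smaller over deviations from line means. There, AT4G13840 and AT5G43450 kept r = 0.81 and 0.78 with HIS1-3, AT1G15170 had 0.72, and AT1G71140 and AT5G59540 only 0.23 and 0.26. None of the 5 closest genes of HIS1-3, AT3G20340 or LEA4-5 were among the 5 closest when ranked by deviations from line means. With Spearman's rho, 3 of the 5 were shared for HIS1-3 and 3 for AT3G20340, and without wild type replicate 3 all 5 and 4.

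LEA4-5 was closest to AT2G41190 (r = 0.84), AT1G75990 (0.82), the presenilin gene PS2 (AT2G29900, 0.80), AT2G30050 (0.78) and AT1G67620 (0.78), and most opposite to AT4G27240 (−0.90), AT3G60850 (−0.85) and AT5G66580 (−0.85). These relations lay within lines as much as between them: AT2G41190 had 0.90 and AT4G27240 −0.93 over deviations from line means. Leaving out the 2 arrays farthest from the median of LEA4-5 lowered AT2G41190 to 0.61 and left AT4G27240 at −0.91. AT5G38710 was closest to AT4G12060 (0.96), AT5G14390 (0.93), AT3G06760 (0.92), AT3G01520 (0.92) and AT2G23840 (0.92), and most opposite to AT4G20980 (−0.92), AT1G76810 (−0.92) and AT3G62360 (−0.90). Without the 2 farthest arrays these 8 fell to between 0.64 and 0.80 in size, so they rest in part on the low array of CBF4 line 10. With Spearman's rho 0 of its 5 closest genes were shared.

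The other linker histone genes were bright and close to wild type. Of 3 loci listed, 3 were measured, and 0 passed in limma against wild type, with 1 in each construct, HIS1-3, at an unadjusted p below 0.05. AT1G06760 was bright on both probe sets, at 8.34 and 8.425 log2, and measured 0.06 ± 0.12 and 0.09 ± 0.17 log2 in CBF4 and −0.15 ± 0.12 and 0.08 ± 0.17 in AtNF-YB1 against wild type. AT2G30620, at 8.13 log2, measured 0.06 ± 0.18 and −0.03 ± 0.18. The median difference of the list was 0.06 log2 in CBF4 and 0.08 in AtNF-YB1, where the median of all probe sets was 0.

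Of the group 4 LEA genes 3 of 3 were measured and 0 passed in any comparison, with 0 also at an unadjusted p below 0.05 in limma. AtLEA4-1 was at the floor on 9 of 11 arrays and LEA18 on 6, so their differences are understated. In CBF4 against wild type they measured 0.44 ± 0.26 and 0.75 ± 0.37 log2, and in AtNF-YB1 0.00 ± 0.26 and 0.05 ± 0.37. The list's median difference was 0.44 log2 in CBF4 and 0.00 in AtNF-YB1. Of 27 other LEA and dehydrin loci 11 were measured, and 0 passed in either construct against wild type, with 2 in CBF4 and 0 in AtNF-YB1 at an unadjusted p below 0.05. At that level all probe sets gave 6.15% and 4.02%. The 2 went in opposite directions in CBF4: COR47 was higher than wild type, and AT2G46140, named here for this count, was lower, at −0.36 ± 0.11 log2 (limma adjusted p = 0.551). The dehydrin gene COR47, which is cold-regulated, was 1.37 ± 0.19 log2 above wild type in CBF4 (limma adjusted p = 0.0815) and rose by 1.42 ± 0.18 log2 over AtNF-YB1 (limma adjusted p = 0.0409). Medians of this list were −0.20 log2 in CBF4 and −0.05 in AtNF-YB1.

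Of the 10 loci of proline metabolism and transport only AT5G38710 and DELTA-OAT, the ornithine aminotransferase gene, were measured under a name. DELTA-OAT differed from wild type by −0.08 ± 0.13 log2 in CBF4 and −0.05 ± 0.13 in AtNF-YB1. No call was made, in limma or at an unadjusted p below 0.05. The 5 listed bZIP regulators of proline dehydrogenase and the 35 loci of abscisic acid synthesis, turnover and signalling were not analysed here, as none was found under a name. Of 10 loci that respond to darkness and sugar starvation 3 were measured and 0 passed, also at an unadjusted p below 0.05. MCCB, a subunit of methylcrotonyl-CoA carboxylase, was 0.11 ± 0.13 log2 in CBF4 and 0.16 ± 0.13 in AtNF-YB1, and ETFQO, which passes electrons from branched-chain amino acid breakdown to the respiratory chain, was 0.12 ± 0.15 and −0.03 ± 0.15. The list's medians were 0.11 and −0.03 log2.

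Of 33 drought and abscisic acid responsive loci 6 were measured, and 4 rose in CBF4 against wild type: KIN1 by 4.42 ± 0.31 log2, KIN2 by 2.01 ± 0.10, COR15A by 4.56 ± 0.32 and the pair of COR15B probe sets by 4.19 ± 0.34 and 4.81 ± 0.21 (limma adjusted p from 0.00162 to 0.0108). These encode small proteins of cold and drought acclimation and are known targets of CBF factors. The list's median was 4.17 log2 in CBF4, 0.08 in AtNF-YB1 and 3.95 between the constructs, where 4 also passed. Of all probe sets 0.232% passed in CBF4 against wild type and 0.31% between the constructs. The list was written with earlier results of these arrays known, so its counts and medians describe only the 6 loci measured. In AtNF-YB1 against wild type 0 passed in limma, with 0 at an unadjusted p below 0.05. Without wild type replicate 3 the same 4 genes passed in CBF4, and 1 passed in AtNF-YB1: COR15B was 1.14 ± 0.08 log2 above wild type on 1 probe set (limma adjusted p = 0.0389) and 0.71 ± 0.11 on the other (limma adjusted p = 0.352). In the remaining lists 0 passed in limma in either construct without that array, and each list's count at an unadjusted p below 0.05 was the same as with it. AT1G16850, named after its values were seen, was 100.8 to 144 units on the CBF4 arrays and 2.70 to 30.6 on the others, 4.15 ± 0.69 log2 above wild type (limma adjusted p = 0.146). Its 30.6 units came from wild type replicate 1, the array with the highest deposited LEA4-5 intensity and the highest median of all arrays. In these same CBF4 shoots HIS1-3 and AT3G20340 were below wild type on every array, but neither difference passed (limma adjusted p = 0.173 and 0.26). Both were chosen by lower values in CBF4 than in AtNF-YB1, and their CBF4 values were all below background. AT3G20340 was also below background on wild type replicates 2 and 3. LEA4-5 and AT5G38710 overlapped with wild type.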

How the data were processed

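The 11 samples were placed in groups by their titles, which give the construct (written AtNF-YB, AtNF-YB1 in the series text), the line and the replicate. The second CBF4 line has 2 numbers in the series text, and the titles carry 19. The replicates are called biological there, and nothing names separate growth batches, so the spread behind each p-value is that among pools and may be technical in part. Per the labels' protocols, total RNA was amplified, labelled with biotin and hybridized to a custom Affymetrix array. The values deposited by the authors are intensity values on a linear scale, some below 0. How they were summarized, background-corrected and scaled, and when scanned, is not given in the sources used here.

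Controls (122 Affymetrix and 162 OBAR probe sets) were left out, and 19374 probe sets were quantile normalized, floored at their 20th percentile (1.90 units) and converted from deposited intensities to log2. A floor understates differences of dim genes. Named probe sets numbered 11598, of which 11547 matched the RefSeq table of TAIR10.1. One limma fit (lmFit and eBayes, two-sided) of 5 line groups without a block left 6 residual degrees of freedom. A construct is the mean of its 2 lines, and adjusted p-values are Benjamini-Hochberg over all 19374. A value is called dim against the 95th percentile of the OBAR controls. Folds against dim groups use that level as a bound, without allowance for the spread between arrays.

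The members, the gene lists and the rule for named genes were chosen with earlier results of these data known. Named were the members, every list gene that passed in a comparison of genotypes, otherwise the 2 of a list with the smallest p against wild type, and the 5 most and 3 least similar genes of each member. Arrays were not paired by replicate number in the main fit. Of 20 pairs with the same number, 7 had deviations correlated above 0.1, and r ran from −0.469 to 0.414. For any 2 transgenic lines both replicate numbers give the same r, as 2 arrays deviate equally from their mean. The 20 pairs are therefore not independent and do not settle whether the arrays were paired. Promoter and protein sequences were not analysed here. Alternatives were other scalings, floors, filters, blocks, variance models, array weights and leaving out each array. Fits used limma 3.58.1 and statmod 1.5.0 in R 4.3.3, and tables and plots pandas 2.3.3 and matplotlib 3.10.9 in Python 3.11.15.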

Additional observations from a re-analysis of the deposited data

Results flagged for a closer look

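AT5G38710 on the array of CBF4 line 10 replicate 1 lay at the floor, 0.93 log2, while the other 3 CBF4 arrays lay between 2.82 and 3.11. On the floored log2 scale its distance to the nearest was 0.869 of the group's whole range, above Dixon's critical value for 4 arrays. It was the only such value among 8 groups examined, the 2 constructs for each of 4 genes, and chance gives about 1 in 20 groups. The deposited intensity was 1.96 units against 5.55 to 9.22, and all 4 values were below the background of their arrays. No such ratio is given for the deposited intensities.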

How the results depend on the processing

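Each construct difference was recomputed under 22 alternatives and each line difference under 20. HIS1-3 ran from −1.15 to −0.59 log2 in CBF4 minus wild type and 0.49 to 0.905 in AtNF-YB1 minus wild type, and AT3G20340 from −1.69 to −0.07 and 1.02 to 1.67, all in 1 direction. With every array kept, members passing between the constructs were 2, but 0 without scaling and 1 with the floor at the 40th percentile. With the replicate block 0 passed, where all probe sets gave 21 calls in place of 60. Because this comparison chose HIS1-3 and AT3G20340, nothing is read from how often they passed. AT5G38710 measured −1.38 log2 between the constructs without CBF4 line 10 replicate 2, where the array at the floor alone stood for line 10. With line as a random block, 1 member passed in CBF4 against wild type, HIS1-3 (limma adjusted p = 0.0218). Calls among all 19374 probe sets were then 150 in place of 45. HIS1-3 was chosen by lower values in CBF4 than in AtNF-YB1 on these same arrays, so nothing is read from its passing here either. Members ordered CBF4, wild type, AtNF-YB1 on every array were 0 without scaling and 1 with the floor at the 40th percentile. All probe sets so ordered were 16 without wild type replicate 3, 10 with median centring, 0 without scaling and 2 with the higher floor. Over the alternatives calls among all probe sets ran from 5 to 150 (45) in CBF4 and 0 to 165 (3) in AtNF-YB1 against wild type, and 9 to 240 (60) between the constructs.

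LEA4-5 in CBF4 minus wild type turned to −0.30 with the replicate block and −0.49 with array weights, and leaving out 1 array gave −0.85 to 0.99. Its line 19 minus line 10 ran from −0.88 to 2.80, and its line 6 minus line 3 from −1.365 to 0.53, when 1 array was left out. AT5G38710 ran from −0.89 to 0.21 in CBF4 minus wild type and from −0.27 to 1.92 between the CBF4 lines. Without scaling, line 6 minus line 3 turned to 0.043 for HIS1-3, 0.0027 for LEA4-5 and 0.012 for AT5G38710. The cause was not tested. A floor at the 10th percentile was not run, as that percentile is −1.14 units and has no log2, and the 15th was added after seeing the data, as were the alternatives of the array order and the list and line values without wild type replicate 3. Testing only probe sets with a mean no lower than the overall median left no member. Signals near background limit all 4 genes.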
